A study of Mus musculus with 12 samples.

Results

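The hearts of non-transgenic (NTG) mice given tamoxifen were compared with those of NTG mice given vehicle, on 3 arrays per group out of 12 in the series, with the groups taken from the sample titles. The series was built around ATF6-MER, in which the stress transcription factor ATF6 is joined to a mutated estrogen receptor domain of the mouse so that tamoxifen can activate it. The NTG animals are littermates without that fusion, so these 6 arrays show the drug in hearts that should carry no transgene. Every mouse was a male of strain C57BL/6, and the labels give about 30 weeks of age for all animals but TG tamoxifen 1, which is labelled 40 weeks. Each array, an Affymetrix oligonucleotide array of the whole mouse genome, was hybridised with total RNA of the left ventricle of a single heart. The other 6 arrays, 3 of transgenic (TG) mice given tamoxifen and 3 of TG mice given vehicle, entered the same statistical fit. The sources used here do not state the dose, route or length of the treatment, what the vehicle was, or which promoter drives the transgene.

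Tamoxifen binds estrogen receptors and blocks or activates them depending on the tissue, and it is widely used in mouse hearts to switch on fusion proteins and recombinases. For that reason a group of animals with the drug and without the fusion serves as a control. The heart itself has estrogen receptors, runs mainly on fatty acids, and also burns lactate, glucose and branched-chain amino acids in its mitochondria.

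The labels were first checked against Esr1, the estrogen receptor gene, whose probe set reads very high in the hearts with the transgene. It read 17.72, 10.88 and 9.89 log2 units on the NTG tamoxifen arrays 1, 2 and 3, and 8.70, 7.15 and 7.27 on the NTG vehicle arrays. The array labelled NTG tamoxifen 1 thus read at the level of the 6 TG arrays, which lay between 16.66 and 18.25, against its label. The other 2 NTG tamoxifen arrays still lay above all 3 vehicle arrays. The Esr1 difference was 5.12 ± 1.49 log2 units (SE, n = 3 per group), and 2.68 log2 units without the array labelled NTG tamoxifen 1. Since that array was singled out by this reading, the Esr1 values are a description, with no test. The counts of called genes and most gene lists are therefore also given without that array; the summed marker levels, the motif shares and the TG values of called genes are from all arrays. A second label conflict concerns TG vehicle 3, called vehicle in its title and tamoxifen in its treatment field. That array enters the NTG comparison through the spread alone, but it enters the group means wherever TG vehicle is compared.

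Cardiomyocyte markers were near the top of the scale on all 6 NTG arrays. Myh6, the main myosin heavy chain of the adult mouse ventricle, read 18.59 to 18.63 with tamoxifen and 18.63 to 18.69 with vehicle. RNA quality was read from the beta-actin control as signal at the 3' end over that at the 5' end, which rises as RNA degrades. This ratio was 1.89 ± 0.0987 (SD, n = 3) with tamoxifen and 2.28 ± 0.158 with vehicle. The arrays did not overlap in it, and an exact two-sided permutation test gave p = 0.1, the smallest value that 3 against 3 arrays allow. For Gapdh the ratios were 0.814 ± 0.0438 and 0.957 ± 0.0633 (exact permutation p = 0.1), while those of pyruvate carboxylase (exact p = 1) and the transferrin receptor (exact p = 0.7) overlapped. With the beta-actin ratio as a term of the fit, 0 genes passed in limma, although 990 had an unadjusted p below 0.05. RNA quality and the drug cannot be told apart in these arrays.

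Most of the difference between the groups consisted of falls. Of 11166 genes tested, 482 (4.32%) passed an adjusted p of 0.05, 409 of them lower (3.66%) and 73 higher (0.654%) in the tamoxifen hearts. The median change was -1.16 log2 units among the lower genes and 0.90 among the higher ones, against -0.01 over all genes, and 281 of the lower but 23 of the higher changed 2-fold or more. Before adjustment 2633 genes had p below 0.05, and for 3367 genes (30.2%) the tamoxifen and vehicle arrays were fully apart, lower for 17% and higher for 13.2%. Without the array labelled NTG tamoxifen 1, 419 genes (3.75%) passed, 338 lower (3.03%) and 81 higher (0.725%). The sets share 263 genes (2.36% of those tested), 230 lower (2.06%) and 33 higher (0.296%), which are 54.6% of the 482 and 62.8% of the 419, and all 482 had the same direction in both fits.

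These counts rested on single arrays. Without NTG vehicle 2 limma called 0 genes, while 1869 had an unadjusted p below 0.05. Without NTG vehicle 1 it called 15, without NTG vehicle 3 it called 3, without NTG tamoxifen 3 it called 23, and without NTG tamoxifen 2 it called 828. Arrays used only for the spread mattered as well: the count was 311, 269 and 320 without TG tamoxifen 1, 2 or 3, and 733 without TG vehicle 1. On the 6 NTG arrays alone it was 21. The plot of counts by setting gives all of them. Each call made with all arrays ends without NTG vehicle 2. Among the genes named, Zfp979, Paxbp1, Nanos1 and Lum were still called without NTG vehicle 1, and Utf1 and Lum without NTG vehicle 3. Median centring in place of quantile normalization gave 47 higher and 925 lower genes, with the median of all genes at -0.16.

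**Figure D1:**
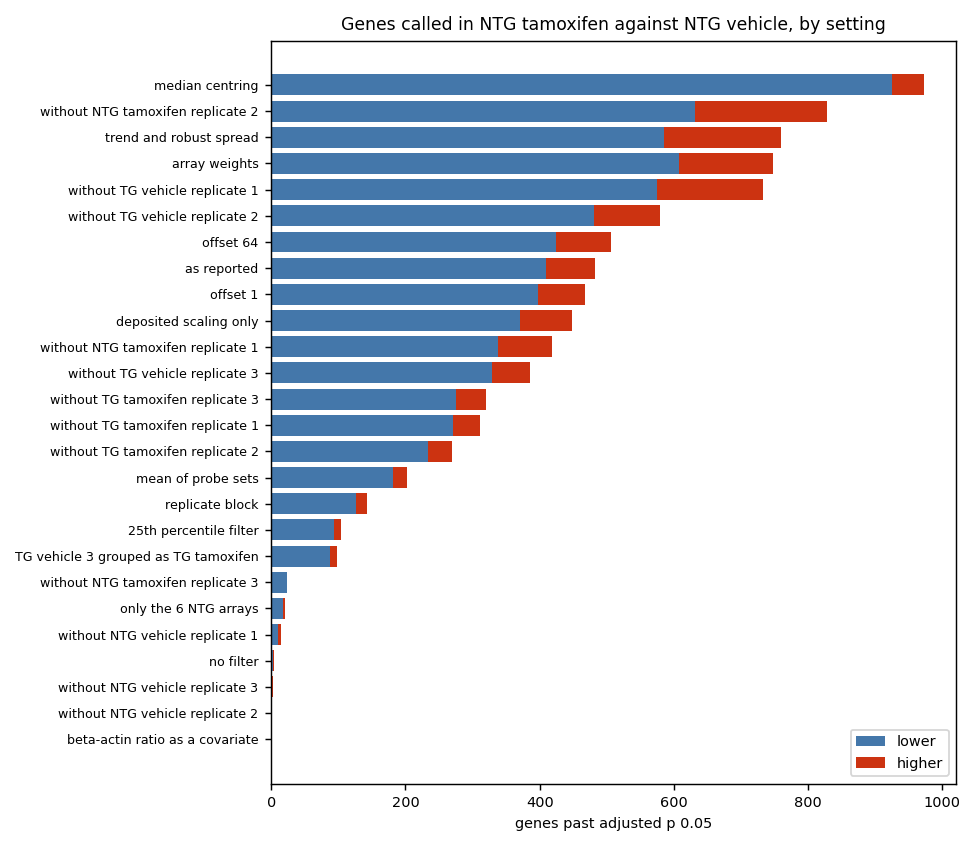
Number of genes past an adjusted p of 0.05 in NTG tamoxifen against NTG vehicle (horizontal axis), lower in blue and higher in red, for the reported fit and each alternative on the vertical axis. The reported fit calls 482 genes, and the counts run from 0 without NTG vehicle 2 or with the beta-actin ratio as a covariate to 972 with median centring.

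Nuclear noncoding RNAs fell in the tamoxifen hearts. Of 19 tested, 6 fell (31.6%, against 3.66% of all genes) and 1 rose, with a median of -0.59 log2 units. Neat1, the RNA scaffold of nuclear paraspeckles, read 11.48, 11.71 and 12.12 log2 units with tamoxifen and 15.07, 15.63 and 15.22 with vehicle. The groups lay far apart, and Neat1 fell by 3.54 ± 0.56 log2 units, or 11.6-fold (adjusted p = 0.0151). A further Neat1 probe set above the filter changed by 0.59 and was not called (adjusted p = 0.263 among probe sets). Firre, a nuclear RNA encoded on the X chromosome, read 6.80, 8.01 and 9.02 with tamoxifen and 10.94, 11.05 and 10.80 with vehicle. All 3 tamoxifen arrays were lower, with NTG tamoxifen 1 the lowest, and Firre fell by 2.99 ± 0.51 (adjusted p = 0.0164). Another probe set of Firre fell by 2.01 (adjusted p = 0.0441 among probe sets).

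The remaining members that fell were Malat1, an abundant RNA of nuclear speckles, by 2.05 ± 0.46, Meg3, an imprinted noncoding RNA, by 1.38 ± 0.26, and Snhg1 and Gas5, which host small nucleolar RNAs in their introns, with changes of -1.78 ± 0.30 and -1.31 ± 0.33. Snhg1 read 10.06, 10.45 and 9.20 with tamoxifen and 11.63, 11.46 and 11.96 with vehicle, with no overlap. Sra1, a gene with coding and noncoding transcripts that was named for its RNA coactivator of steroid receptors, rose by 0.77 ± 0.18 (adjusted p = 0.0347). Outside the list, Snhg4, another snoRNA host, fell by 2.01 ± 0.38. Without the array labelled NTG tamoxifen 1, 5 of the 19 noncoding RNAs fell and 0 rose, with a median of -0.72; Malat1, Gas5 and Sra1 then gave adjusted p values of 0.0611, 0.0529 and 0.0691. The list had 0 calls without any one of the NTG vehicle arrays and 1 without NTG tamoxifen 3. With the beta-actin ratio as a covariate its median was 0.10, so the direction of the list's median turned there.

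Splicing factors and other nuclear RNA-binding proteins fell with them: 11 of 39 tested (28.2%, against 3.66%), 0 rose, and the median was -0.43. Hnrnpa2b1, which binds pre-mRNA and sorts RNA, read 13.23, 13.62 and 12.81 log2 units with tamoxifen and 14.68, 14.85 and 14.97 with vehicle. No tamoxifen array came within a log2 unit of a vehicle array, and Hnrnpa2b1 fell by 1.62 ± 0.27 (adjusted p = 0.0160). All 4 Hnrnpa2b1 probe sets above the filter were lower, with changes of -1.27, -1.62, -2.61 and -2.73. Clk1, a kinase that phosphorylates splicing factors, read 11.40, 11.75 and 11.28 with tamoxifen and 13.27, 13.42 and 13.80 with vehicle. It fell by 2.02 ± 0.51 (adjusted p = 0.0492), and its adjusted p was 0.0919 without the array labelled NTG tamoxifen 1.

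Others of the list that fell were Rbm25 (-1.57 ± 0.29), Luc7l3 (-1.54 ± 0.34), Tardbp, also called TDP-43 (-1.40 ± 0.28), Tra2a (-1.30 ± 0.32), Hnrnpm (-1.26 ± 0.22), the SR protein Srsf5 (-1.21 ± 0.27), Matr3 of the nuclear matrix (-1.21 ± 0.26) and the RNA helicases Ddx17 (-1.17 ± 0.24) and Ddx5 (-1.10 ± 0.24). Outside the list, Luc7l, a partner of the U1 splicing particle, fell by 2.08 ± 0.33 from 12.09, 12.20 and 12.46 with vehicle to 10.30, 9.80 and 10.42. Without the array labelled NTG tamoxifen 1 the median of the list was -0.44 and 4 of 39 fell: Hnrnpa2b1, Hnrnpm, Rbm25 and Tra2a. The list had 0 calls without NTG tamoxifen 3 or any one of the NTG vehicle arrays. Its median kept its sign in the other settings tried on the lists, from -0.55 with median centring to -0.15 with the beta-actin ratio as a covariate.

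Genes that break down branched-chain amino acids had the largest share of falls among the lists, 9 of 24 tested (37.5%), with 0 rises and a median of -0.82. Of the 24, 23 lay below 0, and the arrays did not overlap for 15 (62.5%, against 17% of all genes in this direction). Acadsb, the dehydrogenase that acts on short branched acyl chains, read 10.02, 10.87 and 10.79 log2 units with tamoxifen and 13.46, 13.31 and 13.24 with vehicle. The groups were separated by over 2 log2 units, and Acadsb fell by 2.78 ± 0.45 (6.86-fold, adjusted p = 0.0151). Ivd, the dehydrogenase of the leucine branch, read 14.06, 14.02 and 13.44 with tamoxifen against 15.47, 15.40 and 14.94 with vehicle. It fell by 1.43 ± 0.27 (adjusted p = 0.0238). Acad8, the dehydrogenase of the valine branch, read 10.80, 11.21 and 11.09 against 12.14, 11.95 and 12.05, a change of -1.01 ± 0.17 (adjusted p = 0.0151).

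Other members of the list also fell. Ppm1k, the phosphatase that activates the branched-chain keto acid dehydrogenase, fell by 1.65 ± 0.42, Dld, the shared lipoamide dehydrogenase, by 1.40 ± 0.28, Aldh6a1 by 1.19 ± 0.23, Acat1 by 0.98 ± 0.21, Mccc1 by 0.82 ± 0.18 and Hibadh by 0.82 ± 0.17. Without the array labelled NTG tamoxifen 1, 7 of 24 fell with a median of -0.72, and Ppm1k and Mccc1 gave adjusted p values of 0.0838 and 0.0571. The list had 0 calls without NTG tamoxifen 3 or any one of the NTG vehicle arrays, 12 without NTG tamoxifen 2 and 13 with median centring. In every setting tried on the lists its median was -0.53 or lower, the -0.53 coming with the beta-actin ratio as a covariate.

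The sequences upstream of members that fell were read for the motif GGTCA, the core letters that an estrogen receptor is known to bind, on either strand. The RefSeq table (build GRCm38.p6) held the window from 250 bases before to 50 after the start for 328 of the 409 lower genes, 52 of the 73 higher genes and 9010 of all genes tested. Where a gene had several starts, only the window of the most upstream one was read. The motif was present in 139 windows (42.4%) of lower genes, 16 (30.8%) of higher genes, 3369 (37.4%) of all genes tested and 10845 (40.1%) of the 27025 windows in the table. The full palindrome, GGTCA and TGACC with 3 bases between them, was found for 0 of the lower and 0 of the higher genes and for 18 (0.0666%) of those 27025 genes. The median GC share was 60.7% for lower, 61.7% for higher and 61% for all genes. The windows of Acadsb (chr7:131410351-131410650, plus strand) and Snhg1 (chr19:8723237-8723536, plus strand) are shown as one with and one without the motif. The capitals mark TGACC, the motif as it reads from the minus strand.
Acadsb: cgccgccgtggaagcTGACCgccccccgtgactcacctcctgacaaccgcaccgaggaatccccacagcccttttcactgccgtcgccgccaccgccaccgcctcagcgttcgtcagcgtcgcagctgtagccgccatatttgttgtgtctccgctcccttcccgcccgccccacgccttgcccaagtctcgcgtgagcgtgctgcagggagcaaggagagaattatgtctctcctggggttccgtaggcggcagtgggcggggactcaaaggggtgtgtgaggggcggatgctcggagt
Snhg1: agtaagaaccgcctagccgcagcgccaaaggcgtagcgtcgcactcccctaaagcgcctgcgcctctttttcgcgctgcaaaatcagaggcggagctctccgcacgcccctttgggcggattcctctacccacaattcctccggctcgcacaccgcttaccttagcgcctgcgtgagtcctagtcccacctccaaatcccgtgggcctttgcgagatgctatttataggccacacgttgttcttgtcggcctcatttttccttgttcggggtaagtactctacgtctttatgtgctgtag

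**Figure D2:**
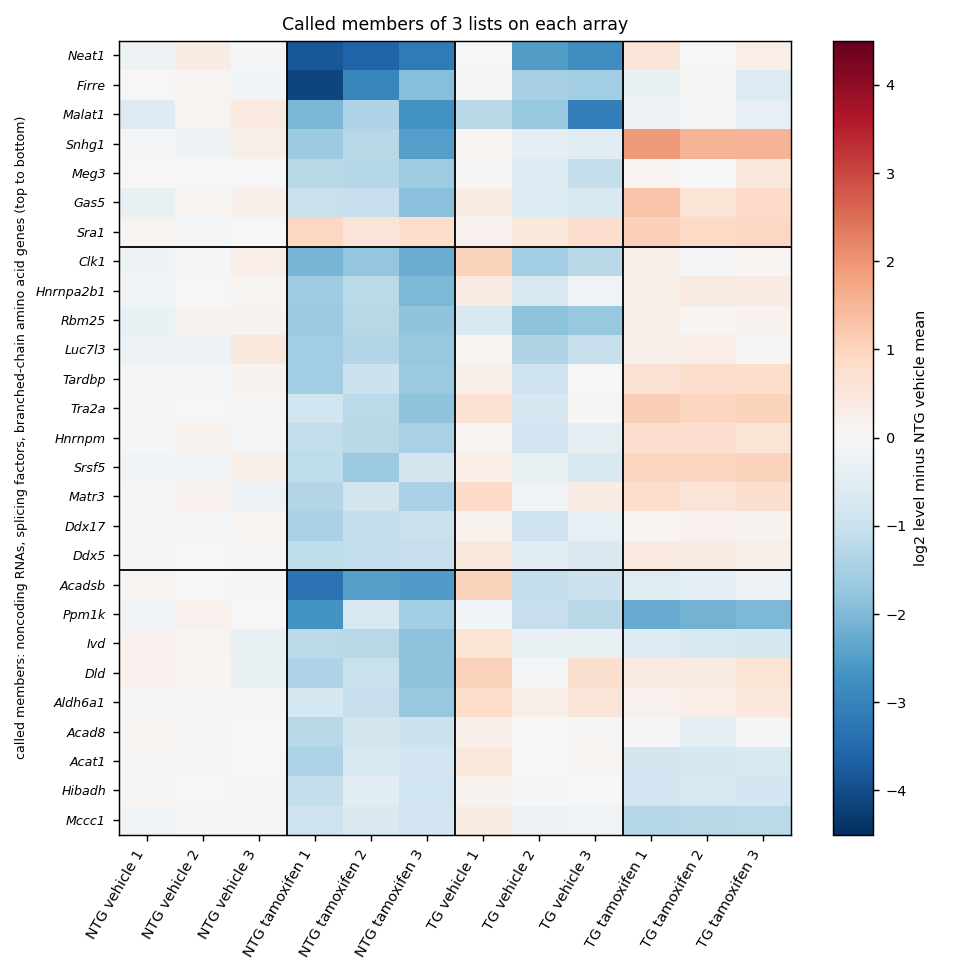
Level on each of the 12 arrays minus the NTG vehicle mean, in log2 units (colour, blue lower and red higher), for the called members of the noncoding RNA, splicing factor and branched-chain amino acid lists, with black lines between groups and lists. The 3 NTG tamoxifen columns are blue for every gene but Sra1. In all 3 blocks TG vehicle 2 and TG vehicle 3 read lower than TG vehicle 1, again except for Sra1.

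Of 28 genes of the tricarboxylic acid cycle and pyruvate entry, 6 fell (21.4%, against 3.66% of all genes), 0 rose, and the median was -0.42. Dld, given above with the branched-chain genes, belongs to this list as well, so these lists are not independent. Sucla2, a subunit of succinyl-CoA ligase, read 14.96, 15.41 and 14.70 log2 units with tamoxifen and 16.45, 16.65 and 16.47 with vehicle. It fell 2.83-fold (adjusted p = 0.0238), with every tamoxifen array below every vehicle array. Pdha1, the catalytic subunit of pyruvate dehydrogenase, read 16.15, 16.21 and 15.33 against 17.10, 17.13 and 16.96 and fell by 1.17 ± 0.27 (adjusted p = 0.0380). Without the array labelled NTG tamoxifen 1 the list had 3 falls and a median of -0.37, and it had 0 calls without NTG tamoxifen 3 or any one of the NTG vehicle arrays.

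Fatty acid uptake and oxidation had 3 of 29 genes lower (10.3%), 0 higher and a median of -0.41. Hadhb, a subunit of the mitochondrial trifunctional protein, read 16.71, 17.01 and 16.44 with tamoxifen and 17.75, 17.78 and 17.64 with vehicle, a change of -1.01 ± 0.17 (adjusted p = 0.0172). Acadm, the medium-chain dehydrogenase, fell by 1.07 ± 0.21 and Etfa, which takes up electrons from these dehydrogenases, by 1.24 ± 0.27. Leaving out the array labelled NTG tamoxifen 1 moved the median of this list to -0.07 with 2 falls, and Etfa then gave an adjusted p of 0.0657. Of 45 oxidative phosphorylation genes 5 fell (11.1%), with a median of -0.09, and 0 were called by limma without the array labelled NTG tamoxifen 1, where the median was -0.03. Ndufs1 and Ndufa5 of complex I read -1.03 ± 0.23 and -1.18 ± 0.26, and Uqcrfs1 of complex III -0.67 ± 0.16. Both lists had 0 calls without NTG tamoxifen 3 or any one of the NTG vehicle arrays.

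Of 30 genes of mitochondrial biogenesis and import, 4 fell (13.3%) and 0 rose, with 13 of the 30 above 0 and a median of -0.07. Opa1, which fuses inner mitochondrial membranes, read 13.57, 13.79 and 13.35 with tamoxifen and 14.89, 14.92 and 14.66 with vehicle, a change of -1.25 ± 0.20 (adjusted p = 0.0151). Dnm1l, which divides mitochondria, fell by 1.31 ± 0.28, and the matrix chaperone Hspd1 changed by -1.34 ± 0.27 (adjusted p = 0.0253, and 0.0536 without the array labelled NTG tamoxifen 1). Outside the list, Spg7, a mitochondrial protease, fell by 1.95 ± 0.39. Its NTG vehicle arrays (12.68, 12.82 and 12.71) lay above all other arrays, with TG vehicle at 11.77, 11.96 and 11.32. Without the array labelled NTG tamoxifen 1 the list had 3 falls, 1 rise and a median of -0.08, and it had 0 calls without NTG tamoxifen 3 or any one of the NTG vehicle arrays. Of 26 contractile genes limma called 0 with all arrays, 4 had an unadjusted p below 0.05, and the median was -0.11; limma called 0 without the array labelled NTG tamoxifen 1 as well, with a median of 0.01.

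**Figure D3:**
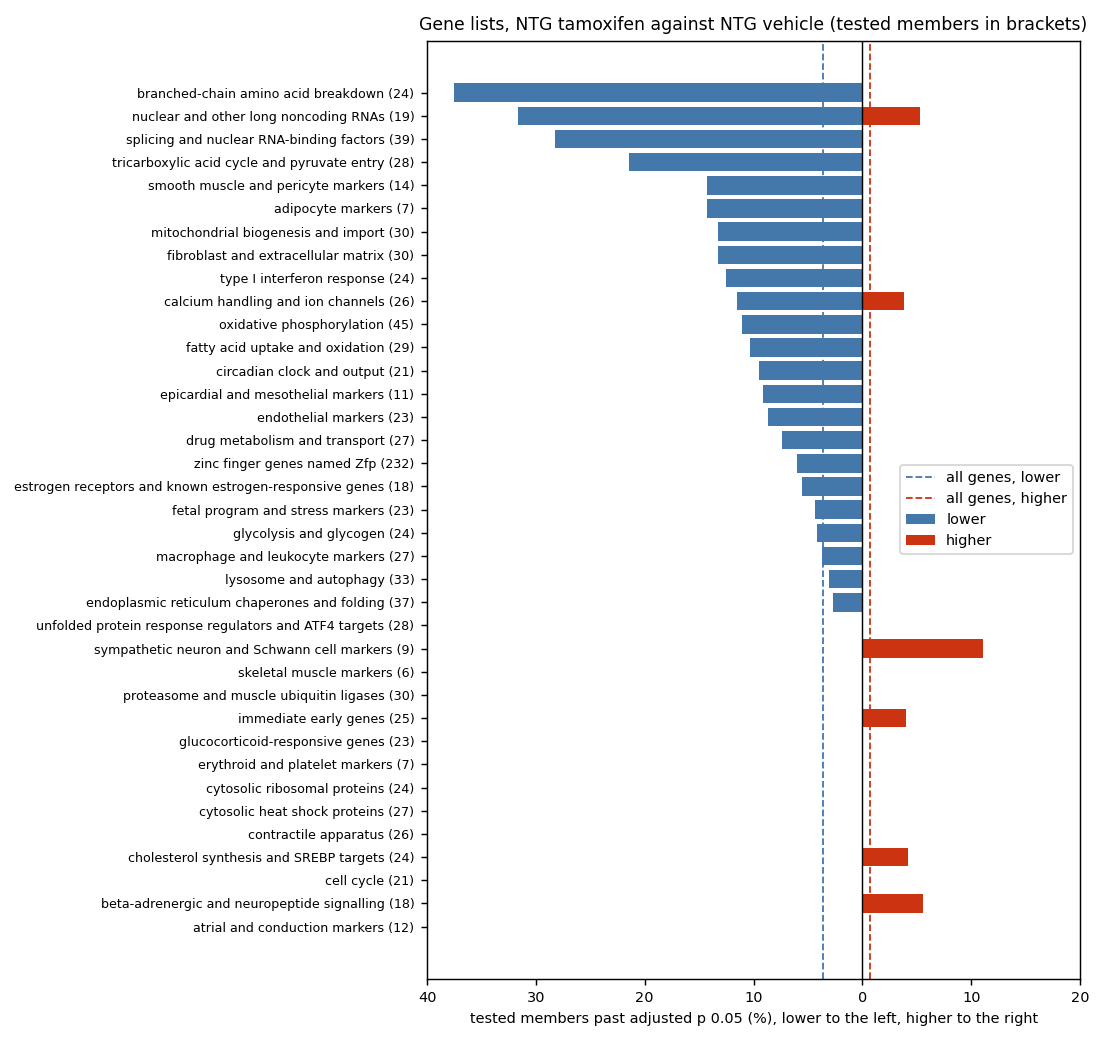
Share of tested members past an adjusted p of 0.05 in NTG tamoxifen against NTG vehicle (horizontal axis, percent; lower to the left in blue, higher to the right in red) for each gene list, with the number tested in brackets and dashed lines at 3.66% lower and 0.654% higher for all genes. Breakdown of branched-chain amino acids (37.5%), noncoding RNAs (31.6%), splicing factors (28.2%) and the tricarboxylic acid cycle (21.4%) stand farthest to the left.

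Some markers of the other cells of the ventricle also fell. Lum, the collagen-binding proteoglycan lumican, read 12.09, 12.18 and 11.64 log2 units with tamoxifen and 13.97, 13.85 and 13.43 with vehicle. It also lay below all 6 TG arrays, at 14.02 to 14.58. It fell by 1.78 ± 0.20 (adjusted p = 0.0151, and 0.0131 without the array labelled NTG tamoxifen 1) and was the named gene that passed the threshold in most alternatives, 19 of 21. Postn, a matrix protein of activated fibroblasts, fell by 1.04 ± 0.24, Gsn by 1.19 ± 0.23 and Dpt by 0.96 ± 0.19. These were 4 of 30 fibroblast and matrix genes (13.3%), whose median was 0.04; without the array labelled NTG tamoxifen 1 there were 5 falls and a median of 0.03. The list had 1 or 0 calls without NTG tamoxifen 3 or any one of the NTG vehicle arrays. Col1a1 changed by 0.15 and Pdgfra by 0.01, neither called. In a ventricle, fewer cells of a type and less RNA per cell cannot be told apart.

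In vessels, Rgs5, a pericyte marker, read 15.31, 16.10 and 14.78 with tamoxifen and 17.06, 17.17 and 17.11 with vehicle, a change of -1.72 ± 0.30 (adjusted p = 0.0179). Abcc9, the sulfonylurea receptor of cardiac and vascular potassium channels, fell by 1.11 ± 0.18. Of 23 endothelial genes 2 fell (8.7%), the fatty acid binding protein Fabp4 by 1.13 ± 0.20 and the transcription factor Ets1 by 0.90 ± 0.17, with a median of -0.25. Of the 23, 18 lay below 0, and for 11 (47.8%, against 17% of all genes) every tamoxifen array was below every vehicle array. Pecam1, whose groups overlapped, read 12.27, 12.00 and 12.44 against 12.46, 12.30 and 12.31. Of 27 leukocyte genes 1 fell (3.7%, against 3.66% of all genes), and 19 lay above 0. The gene that fell was Cd163, a marker of resident macrophages (by 1.68 ± 0.34), while Adgre1 read 11.92 to 12.10 against 11.85 to 11.94. Smooth muscle and pericyte markers had 2 falls among 14 genes (14.3%) and a median of -0.29, with 5 of the 14 fully apart in the lower direction (35.7%, against 17%). Leaving out the array labelled NTG tamoxifen 1 gave 2 falls and a median of -0.20 in the endothelial list, 2 falls, 1 rise and -0.16 in smooth muscle and pericytes, and 2 falls and 0.18 in leukocytes. These 3 lists had 0 calls without NTG tamoxifen 3 or any one of the NTG vehicle arrays. The log2 of the summed level ran from 17.64 to 18.01 with tamoxifen and 18.32 to 18.51 with vehicle for the endothelial list, and from 18.01 to 18.35 against 18.58 to 18.78 for smooth muscle and pericytes. The adipocyte list, in which Adipoq lay below the filter, ran from 16.52 to 17.10 against 17.52 to 17.79. In the endothelial, smooth muscle and adipocyte lists all tamoxifen arrays thus summed below all vehicle arrays. The same held for fibroblast and matrix genes (18.89 to 19.13 against 19.16 to 19.36). It also held for the contractile genes of cardiomyocytes (22.19 to 22.26 against 22.28 to 22.30). Sympathetic neuron and Schwann cell markers (15.18 to 15.30 against 14.78 to 15.01) and erythroid and platelet markers summed above vehicle. Sums of linear levels weigh bright genes most, and Fabp4 belongs to both the endothelial and the adipocyte list. It read 16.04, 16.46 and 15.97 with tamoxifen against 17.17, 17.23 and 17.45 with vehicle. The sums of these 2 lists are thus not independent. Fabp4 was the 1 called of 7 adipocyte genes (14.3%, against 3.66% of all genes). That list's median was -0.23, and -0.0001 without the array labelled NTG tamoxifen 1. For leukocytes the sums overlapped, from 17.26 to 17.54 against 17.29 to 17.57. The part of cell composition in the other results was not tested.

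Atrial genes marked a difference among the tamoxifen hearts. Myl7, the atrial myosin light chain, read 8.76, 15.12 and 12.21 log2 units on NTG tamoxifen 1, 2 and 3, and 9.11, 8.79 and 11.56 with vehicle. Myl4 read 10.70, 14.94 and 13.40 against 11.02, 11.14 and 12.36, and Sln, which regulates the atrial calcium pump, 6.39, 13.34 and 9.66 against 9.22, 9.22 and 10.79. NTG tamoxifen 2 was the highest array for all 3 genes. With all arrays limma called 0 of 12 atrial genes (3 at an unadjusted p below 0.05), and without the array labelled NTG tamoxifen 1 it called Myl7 (3.85) and Myl4 (2.67) higher; Sln read 1.76 there and was not called. The summed level of the list ran from 17.49 to 18.33 with tamoxifen and 17.67 to 17.84 with vehicle. Hamp, the iron hormone hepcidin, followed the same order, at 9.82, 12.28 and 10.91 against 9.79, 9.65 and 10.16, and passed without that array (1.73, adjusted p = 0.0335). Whether the high atrial readings came from atrial tissue in these samples was not tested.

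Erythroid and platelet markers did not pass the test. Their median change was 0.97 over 7 genes, 5 of which had no overlap between the groups (71.4%, against 13.2% of all genes in this direction), and limma called 0 of them, with 5 at an unadjusted p below 0.05; the median was also 0.97, with 0 called, without the array labelled NTG tamoxifen 1. Alas2, the first enzyme of heme synthesis in red cells, read 13.26, 13.52 and 12.54 against 11.94, 12.20 and 11.01 (1.39, adjusted p = 0.146). The summed level ran from 14.74 to 15.37 against 14.62 to 14.71. Cytosolic ribosomal proteins had a median of 0.24, with 13 of 24 not overlapping in the higher direction (54.2%, against 13.2%), and limma called 0, with 9 at an unadjusted p below 0.05; the median was 0.20, with 0 called, without that array.

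The rises were fewer and smaller. Utf1, a transcription factor of embryonic stem cells, read 10.75, 10.95 and 11.49 log2 units with tamoxifen and 8.75, 8.39 and 10.31 with vehicle. NTG vehicle 3 lay close to the tamoxifen arrays, and the rise was 1.92 ± 0.41 (adjusted p = 0.0275). Adamts9, a secreted protease of the matrix, read 12.20, 12.29 and 12.59 against 11.30, 11.11 and 11.32, a rise of 1.11 ± 0.21 (adjusted p = 0.0238). Enc1, an actin-binding kelch protein, read 12.99, 13.13 and 13.21 against 11.92, 12.17 and 12.07, a rise of 1.06 ± 0.17 (adjusted p = 0.0155). For both Adamts9 and Enc1 the arrays of a group lay closer to each other than to any array of the other group. Polr3f, a subunit of RNA polymerase III, rose by 1.15 ± 0.21, Orc2 of the origin recognition complex by 1.12 ± 0.21, the surface protein Cd24a by 1.23 ± 0.25, the corepressor Irf2bp2 by 1.06 ± 0.22, the kinase Mast4 by 1.04 ± 0.18 and the adhesion protein Lpp by 1.03 ± 0.22. These genes passed with and without the array labelled NTG tamoxifen 1. TG vehicle lay above NTG vehicle for 57 of the 73 higher genes. For 28 the NTG vehicle arrays lay below all 9 other arrays, among them Enc1, Cd24a, Orc2 and, named below, Fdps, Rsph14 and Nanos1. Enc1 read 12.83, 12.95 and 13.40 on the TG vehicle arrays. For 25 the NTG tamoxifen arrays lay above all 9 others, among them Polr3f, Irf2bp2, Mast4 and Lpp. Of the 409 lower genes, TG vehicle lay below NTG vehicle for 299. The NTG vehicle arrays lay above all 9 others for 64 of them, and the NTG tamoxifen arrays below all 9 others for 229. The matching shares over all genes tested are not given here. NTG vehicle enters both comparisons, so these counts are a description.

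Fdps, which makes farnesyl diphosphate for cholesterol and protein prenylation, read 13.47, 11.61 and 12.20 against 11.02, 10.66 and 11.01. It rose by 1.53 ± 0.37 (adjusted p = 0.0420), with NTG tamoxifen 1 the highest array, and by 1.01 without it (adjusted p = 0.0469). Fdps was the 1 of 24 cholesterol genes that rose (4.17%, against 0.654% of all genes), and 0 fell. Without the array labelled NTG tamoxifen 1, Fdps rose and 3 of the 24 fell (12.5%, against 3.03% of all genes). That array read above all other NTG arrays for 14 of the 24 (58.3%, against 25.6% of all genes). Npy, a peptide of sympathetic nerves, read 10.67, 10.41 and 10.41 with tamoxifen and 8.25, 8.33 and 8.69 with vehicle. It rose by 2.07 ± 0.47 (adjusted p = 0.0334, and 0.0716 without the array labelled NTG tamoxifen 1). The 3 TG vehicle arrays, which had no drug by their titles, read 10.60 to 10.70, the level of the NTG tamoxifen arrays. Pfn1, the actin monomer binder profilin, read 14.42, 14.15 and 14.09 against 12.86, 12.84 and 12.63, a rise of 1.45 ± 0.29 (adjusted p = 0.0250, and 0.0516 without that array). Slc8a1, the sodium-calcium exchanger, rose by 0.84 ± 0.18 and Btg2, an early growth-arrest gene, by 0.86 ± 0.19; both lost their call without that array (adjusted p = 0.0567 and 0.0578). Slc8a1 read -0.29 with the mean of its probe sets. Rsph14, Nanos1 and Gpaa1 rose by 2.00 ± 0.49, 1.88 ± 0.45 and 1.53 ± 0.34 and likewise lost their calls there.

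**Figure D4:**
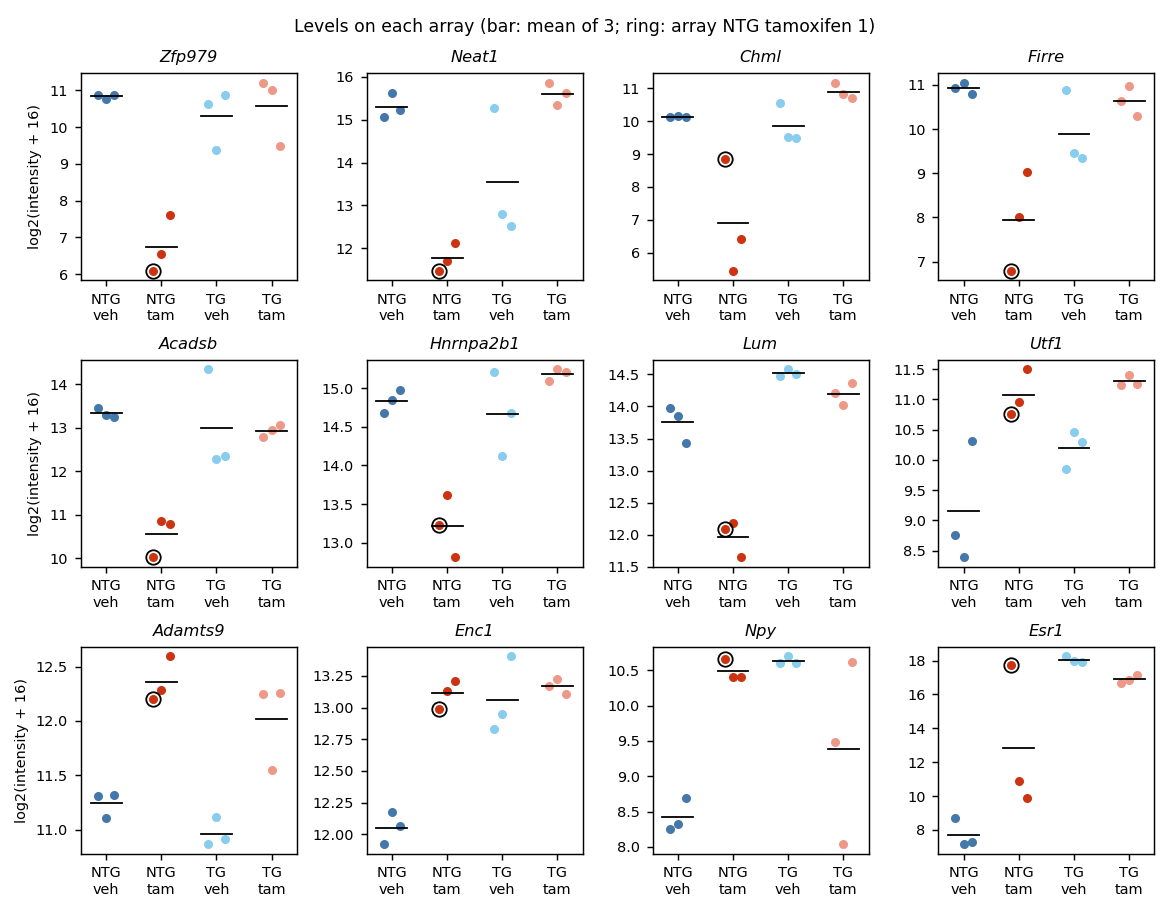
Level on each array as log2(intensity + 16) (vertical axis) for 12 genes in the 4 groups (horizontal axis; veh is vehicle, tam is tamoxifen); bars are means of 3 arrays and the ring marks the array labelled NTG tamoxifen 1. For the 7 genes that fell, the NTG tamoxifen arrays lie below all NTG vehicle arrays; for Npy the TG vehicle arrays lie with the NTG tamoxifen arrays, and for Esr1 the ringed array lies with the TG arrays.

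Other large falls came from unrelated functions. Zfp979, a zinc finger gene, read 6.10, 6.53 and 7.60 log2 units with tamoxifen and 10.86, 10.76 and 10.88 with vehicle. It fell by 4.10 ± 0.51 (17.1-fold, adjusted p = 0.0151), from a vehicle level that varied little to one near the bottom of the scale. Of 232 tested genes named Zfp, 14 fell (6.03%, against 3.66% of all genes), among them Zfp943 and Zfp386, with a median of -0.05. Without the array labelled NTG tamoxifen 1, 8 of the 232 fell (3.45%, against 3.03%) and 3 rose (1.29%, against 0.725%), with a median of 0.02. Chml, a partner of the enzyme that lipidates Rab proteins, read 8.85, 5.45 and 6.40 against 10.14, 10.15 and 10.12, a change of -3.24 ± 0.65, and of -4.21 without the array labelled NTG tamoxifen 1. Kitl, the ligand of the receptor KIT, fell by 2.07 ± 0.36, Selenot, a selenoprotein of the ER, by 2.04 ± 0.35, Rida, which clears reactive imines, by 2.05 ± 0.30, the lipid flippase Atp10d by 2.18 ± 0.55, Tmem245 by 2.16 ± 0.39 and Paxbp1 by 2.12 ± 0.31. These genes passed with and without that array. Tmem42 (-2.70), D3Ertd751e (-2.55), the RNA export receptor Nxf1 (-2.52), the glutathione transferase Gsta3 (-2.20) and the splicing factor Prpf39 (-2.13) passed with all arrays and not without it.

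Ion channels and signals held a few more falls. Kcnd2, a channel of the transient outward potassium current, fell by 1.18 ± 0.24 and Cacna2d1, a subunit of the L-type calcium channel, by 1.75 ± 0.37; without the array labelled NTG tamoxifen 1 they gave adjusted p values of 0.0516 and 0.0579. The clock output factor Tef fell by 1.01 ± 0.24 and the clock repressor Nr1d2 by 1.60 ± 0.40, the latter with NTG tamoxifen 1 at 12.58 and the other tamoxifen arrays at 14.40 and 14.31 against 15.18 to 15.54. The circadian list had 2 falls among 21 genes (9.52%, against 3.66% of all genes), but its median was 0.13, with 12 of the 21 above 0. Without that array it had 1 fall (4.76%, against 3.03% of all genes) and a median of 0.26. The time of day of sampling is not given in the sources used here. Ahr, the aryl hydrocarbon receptor, fell by 1.07 ± 0.23, Pfkfb2, which controls cardiac glycolysis, by 1.41 ± 0.30, Efemp1 by 0.95 ± 0.17, the autophagy gene Atg12 by 1.46 ± 0.22 and Tmx3 by 0.90 ± 0.20. Of these, Tef (adjusted p = 0.0817) and Pfkfb2 (0.0571) lost their calls when that array was left out. Igf1, known to respond to estrogen, fell by 1.15 ± 0.27 (adjusted p = 0.0375, and 0.0831 without that array). Igf1 was the 1 called member of 18 estrogen receptor and estrogen-responsive genes (5.56%, against 3.66% of all genes lower), whose median was 0.23. Without that array 0 of the 18 were lower and 1 was higher (5.56%, against 0.725% of all genes), with a median of 0.13. The higher gene was Esr1, by whose reading that array was singled out.

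Interferon genes were divided. Ifit1, which binds foreign RNA, read 10.15, 9.96 and 9.62 log2 units with tamoxifen and 11.34, 11.55 and 10.94 with vehicle, a change of -1.37 ± 0.22 (adjusted p = 0.0151). The TG vehicle arrays read 9.85 to 10.02, as low as the NTG tamoxifen arrays. Gbp3 (-1.47 ± 0.36) and Oas2 (-0.96 ± 0.24, adjusted p = 0.0804 without the array labelled NTG tamoxifen 1) also fell, while Ifit3 read -0.09, Irf7 0.17 and Isg20 0.82, none called. In all 3 of 24 fell (12.5%) with a median of -0.01. Ifit2 read 10.45, 8.22 and 7.43 against 11.19, 10.86 and 10.84 and passed without the array labelled NTG tamoxifen 1 (-3.14, adjusted p = 0.0234). So did Bmp1 (-2.90), Tom1l1 (-2.75), Agrn (-2.78) and the chemokine Ccl2 (-2.40), for which NTG tamoxifen 1 read above the other tamoxifen arrays, and Rgs2 in the higher direction (1.36).

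The array labelled NTG tamoxifen 1 carried the ER chaperone readings. Hspa5, the chaperone BiP, read 18.05, 15.65 and 15.49 log2 units with tamoxifen and 15.95, 16.08 and 16.19 with vehicle. The first array was high and the other 2 lay below all vehicle arrays, so the change was 0.32 ± 0.52 with all arrays (adjusted p = 0.75) and -0.50 without it (adjusted p = 0.173). It was above all other NTG arrays for 32 of 37 ER chaperone and folding genes (86.5%, against 25.6% of all genes). The list's median was 0.56 with it and 0.07 without it, and 0 of 37 were called higher and 1, Tmx3, lower with all arrays. Without that array 1 of 37 was called higher (2.7%, against 0.725% of all genes) and 1 lower (2.7%, against 3.03%). Rcan1, an inhibitor of calcineurin, read 15.17, 13.05 and 13.46 against 12.83, 12.60 and 13.28 (0.99 ± 0.45, adjusted p = 0.214, and 0.35 without it). Atf6 read 12.67, 13.41 and 13.47 against 13.74, 13.55 and 13.62 (-0.45 ± 0.21, adjusted p = 0.214, and -0.20 without it). Of 28 genes of the unfolded protein response and ATF4, limma called 0 with all arrays (5 at an unadjusted p below 0.05), and 1 fell without it.

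In TG hearts the genes that fell here went both ways. TG tamoxifen against TG vehicle, in which 2774 genes (24.8%) were called, shares no array with the NTG comparison, only the estimate of the spread. Of the 409 genes lower in NTG hearts, 187 lay below 0 and 222 above 0 in TG hearts, with a median of 0.09, where 65 were called lower (15.9%, against 14.4% of all genes) and 61 higher (14.9%, against 10.4%). Of the 73 higher genes, 42 lay above 0 and 31 below, 13 were called higher and 4 lower. The test of the difference between the drug's effects passed for 238 of the 409 (58.2%) and 31 of the 73 (42.5%), against 14.3% of all genes (7.5% with the NTG change lower and 6.76% with it higher). The NTG change enters that test, so its share among called genes is a description. The difference passed without the array labelled NTG tamoxifen 1 for 2546 genes (22.8%), and leaving out any other single array gave 639, without NTG vehicle 2, to 2251, without TG vehicle 1. With TG vehicle 3 grouped by its treatment field it passed for 0 genes in limma (1988 at an unadjusted p below 0.05), and likewise for 0 with the beta-actin ratio as a covariate (812). Neat1 rose by 2.07 in TG hearts, Snhg1 by 1.94, Rbm25 by 1.57, Srsf5 by 1.23 and Hnrnpm by 1.09, while the fall of Acadsb was not seen there (-0.05, adjusted p = 0.945). The median of the 39 splicing factors was 0.50 in TG hearts, and the difference passed for 16 of them. In branched-chain amino acid breakdown it was -0.96, with 14 of 24 lower, and the difference passed for 5.

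**Figure D5:**
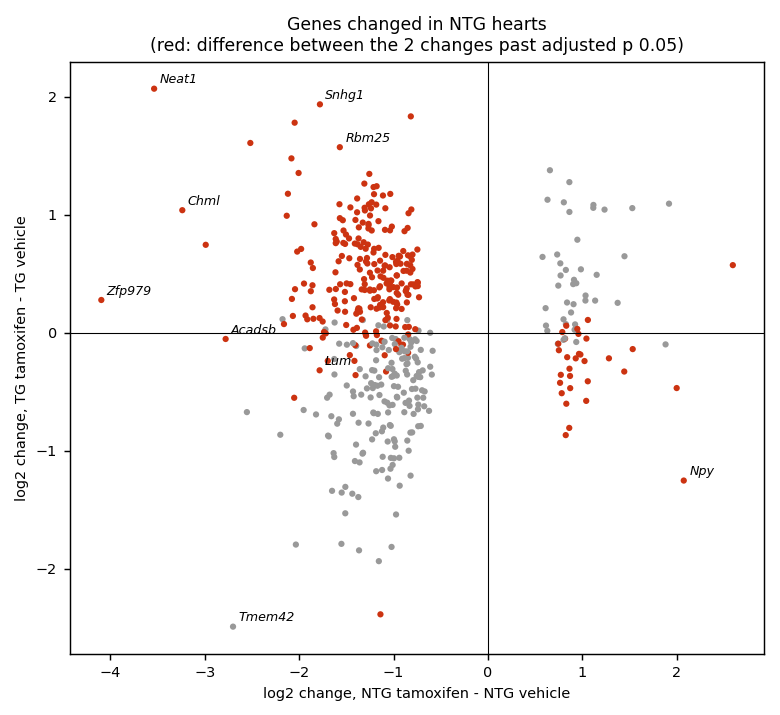
Log2 change with tamoxifen in TG hearts (vertical axis) against that in NTG hearts (horizontal axis) for the 482 genes called in NTG hearts; red points passed the test of the difference between the changes. Of the 409 points left of 0, 187 lie below and 222 above the horizontal line, and most red points lie in the upper left.

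TG hearts on vehicle were not uniform in these genes. Neat1 read 15.27 log2 units on TG vehicle 1, the level of the NTG vehicle arrays, and 12.80 and 12.53 on TG vehicle 2 and TG vehicle 3, near the NTG tamoxifen arrays. Clk1 read 14.53, 11.97 and 12.24 and Acadsb 14.34, 12.27 and 12.36 on the same 3 arrays. Of the 409 genes lower in NTG tamoxifen, both TG vehicle 2 and TG vehicle 3 read below TG vehicle 1 for 317 (77.5%), against 32.7% of all genes tested. The same held for 11 of 11 splicing factors, 6 of 6 noncoding RNAs and 9 of 9 branched-chain genes that fell. Over the whole lists it held for 33 of 39, 14 of 19 and 16 of 24. The median of the mean of TG vehicle 2 and TG vehicle 3 minus TG vehicle 1 was -0.43 over the 409 genes and 0.04 over all genes. Of the 73 higher genes both read above TG vehicle 1 for 46 (63%), against 40.2% of all genes. This split was looked for after the values had been seen. The beta-actin ratio was 1.68 on TG vehicle 1 and 1.32 and 1.5 on the other 2 arrays, and its part in the split was not tested. TG vehicle against NTG vehicle gave 405 called genes (3.63%, 2.24% lower and 1.39% higher) and NTG tamoxifen against TG vehicle 1543 (13.8%, 7.85% lower and 5.96% higher); both share arrays with the main comparison. Grouped by the treatment field of TG vehicle 3, they gave 0 (1395 at an unadjusted p below 0.05 in limma) and 182. Without NTG vehicle 2 and without TG vehicle 3 the first gave 2 and 4 genes, and without TG vehicle 3 the second gave 651.

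Where a gene had further probe sets above the filter, most had the same sign. The lower genes had 368 such probe sets over 219 genes, 278 of them below 0 and 75 called lower, with a median of -0.46; the higher genes had 83 over 45 genes, 66 of them above 0 and 4 called higher, with a median of 0.36. For both groups 0 further probe sets were called in the opposite direction by limma. A probe set name ending in _s_at or _x_at means that it may match more than one transcript. Such probe sets stood for 13.7% of the lower, 9.59% of the higher and 11.4% of all genes, and among the genes named with values for Acadsb, Rida, Tmx3, Ets1, Gsn, Abcc9, Malat1, Meg3, Tardbp, Ddx17, Hibadh and Hamp.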

How the data were processed

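The deposited values are linear intensities, 1 per probe set and array; their mean, trimmed by 2% at both ends, was 2500.02 for all 12 arrays, a common scaling by the authors. The scanning and summarisation software is not given in the sources used here. The labels name separate hearts as replicates. Here, intensities were taken as log2(value + 16) and quantile normalized over 45101 probe sets. Control probe sets (64) were removed, genes were named from the 34945 probe sets with 1 symbol in the platform annotation, and the probe set with the highest mean stood for a gene. Genes below the 50th percentile of probe sets were left out, which kept 11166 of 18193. Fold changes on this offset scale understate changes of dim genes.

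The test was limma 3.58.1 under R 4.3.3, two-sided, using lmFit and eBayes on the 4 group means of all 12 arrays together (8 residual and 3.55 prior degrees of freedom). An adjusted p is by Benjamini-Hochberg over all genes tested, with a threshold of 0.05; ± is the standard error unless marked SD. The fit was repeated without the array labelled NTG tamoxifen 1. The script was tested on simulated data. Fits with other scaling, offsets, filters, probe set rules, spread models, covariates and left-out arrays were compared, and with a replicate block. The number of arrays limits the precision.

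The comparison, the 36 gene lists (1044 entries, 954 on the array) and the genes named were chosen with earlier results of these data known. Lists were described by counts and medians, with no test. Named were Esr1, Atf6, Hspa5, Rcan1, the 15 largest falls and 10 largest rises called with and without the doubtful array and with no overlap, the 5 largest each way called in 1 of these fits alone, and at most 3 called genes from each list, with predicted genes skipped. Further called members of the noncoding RNA, splicing and branched-chain lists, and the marker genes given with their levels, were named after their values had been seen. Promoter windows are those of RefSeq.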

Additional observations from a re-analysis of the deposited data

Results flagged for a closer look

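The drug's effect differed between NTG and TG hearts for 1593 of 11166 genes in limma's test of the difference (14.3%). With TG vehicle 3 grouped by its treatment field, or with the beta-actin ratio as a covariate, limma called 0 (1988 and 812 at an unadjusted p below 0.05), so every difference given here loses its call in both. Among the 91 named genes it differed for 48, with adjusted p values from 0.00553 to 0.0491. The values below are the NTG change minus the TG change in log2 units, and each comparison shares the same estimate of the spread. None of these differences was given an explanation.

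The difference was below 0 for most of them. Among noncoding RNAs it was -5.61 for Neat1, -3.73 for Firre, -3.72 for Snhg1 and -3.36 for Snhg4. Among splicing and RNA factors it was -4.13 for Nxf1, -3.14 for Rbm25, -3.12 for Prpf39, -2.36 for Luc7l, -2.35 for Hnrnpm and -2.13 for Hnrnpa2b1. Zinc finger genes and Paxbp1 read -4.37 for Zfp979, -2.08 for Zfp943, -2.07 for Zfp386 and -3.30 for Paxbp1. Metabolic and mitochondrial genes read -2.73 for Acadsb, -1.57 for Sucla2, -1.47 for Pdha1, -1.72 for Dnm1l, -1.14 for Opa1, -1.45 for Hspd1 and -1.50 for Rida.

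Genes of interferon and chemokine responses read -3.80 for Ifit2, -2.27 for Gbp3, -2.26 for Ifit1, -1.45 for Oas2 and -5.26 for Ccl2. Stromal, vascular and matrix genes read -3.16 for Agrn, -1.71 for Rgs5, -1.60 for Postn, -1.46 for Lum, -1.06 for Fabp4, -0.88 for Efemp1 and -0.80 for Ets1. Further genes read -4.28 for Chml, -2.41 for Selenot, -2.23 for Tmem245, -2.21 for Kitl, -1.87 for Atg12, -1.71 for Cacna2d1, -1.59 for Tmx3, -1.36 for Igf1 and -1.24 for Ahr.

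The difference was above 0 for 6 named genes: 3.33 for Npy, 2.47 for Rsph14, 1.67 for Gpaa1, 1.47 for Irf2bp2, 1.09 for Mast4 and 0.95 for Enc1.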

How the results depend on the processing

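Counts of called genes are given in the order A to E: A, NTG tamoxifen against NTG vehicle with all arrays (482), B, the same without NTG tamoxifen 1 (419), C, the difference between the drug's effects (1593), D, TG vehicle against NTG vehicle (405), and E, NTG tamoxifen against TG vehicle (1543). Without a filter they were 4, 7, 361, 8 and 582, with a 25th percentile filter 104, 31, 884, 73 and 963, and with the mean of probe sets 202, 26, 1045, 151 and 1018; more or other genes are tested there. With array weights A, C, D and E were 748, 2682, 1288 and 1016. With a trend and robust spread A, B and D were 759, 778 and 648. Median centring gave 972 and 689 for A and B, and the fit on the 6 NTG arrays gave 21 and 29. With the beta-actin ratio as a covariate limma called 0 genes in A to D, with 990, 1177, 812 and 1449 at an unadjusted p under 0.05. With TG vehicle 3 grouped as TG tamoxifen the counts were 98, 10, 0, 0 and 182; for the zeros limma had 1988 (C) and 1395 (D) at an unadjusted p under 0.05. Leaving out 1 array at a time gave 0 to 828, 2 to 821, 639 to 2546, 2 to 813 and 651 to 1853 over all arrays; leaving out TG tamoxifen 2 or 3, TG vehicle 1 or 2, and in D and E the arrays outside the comparison, was chosen after seeing the data. The replicate numbers did not pair the arrays (correlations of 0.0919, 0.032 and 0.0129), and with the number as a replicate block A, B and D were 143, 2 and 91. The difference in the 3' to 5' ratio was -0.389 for beta-actin, -0.403 without NTG tamoxifen 1, -0.143 for Gapdh and -0.204 for the mean log2 ratio of the controls. Of 1900 pairs of a named gene and an alternative, 1102 kept direction and side of the threshold, 770 lost the call, 24 gained one and 4 turned: Atf6 (0.10) and Slc8a1 (-0.29) with the mean of probe sets, and Hspa5 with array weights (-0.10) and without NTG tamoxifen 1 (-0.50; leaving out 1 NTG array gave -0.50 to 0.78). Except where stated, the cause was not tested.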
